A study of Arabidopsis thaliana with 4 samples.

Results

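Transcript levels of the Arabidopsis mutant atc3h17-1 were compared with those of wild type (WT). The comparison comprised 2 of the 4 samples of the series, 1 array for atc3h17-1 and 1 for WT, chosen by their titles. All samples were untreated whole Col-0 seedlings grown on agar medium with sucrose in short days and collected 14 days after germination. The other 2 arrays hold seedlings labelled as overexpressing the same gene (C3H17_OX, replicates 1 and 2), and their values stand beside those of the mutant where they help to place a gene. The labels give the allele's name and not its kind, nor the promoter behind the overexpression, the number of lines or the number of seedlings pooled per sample.

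C3H17 belongs to the CCCH zinc finger proteins, whose fingers hold zinc through cysteines and a histidine. Members with a tandem pair of fingers are known in plants to bind RNA or DNA and have been linked to hormone, stress and seed development responses. A whole seedling mixes leaf, stem and root cells, so a gene used by 1 organ follows that organ's share of the RNA. In such bulk samples fewer cells of a type and less RNA per cell cannot be told apart.

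Each array carried 43803 non-control spots, of which 72.8% in atc3h17-1, 74.5% and 73.6% in C3H17_OX and 72.0% in WT were well above background by the scanner software's mark. Levels are given as a scaled signal, on which 100 is the 75th percentile of the array, and they can be compared between arrays but not between genes. Differences are on the log2 scale, atc3h17-1 minus WT, so that 1 is a 2-fold difference. With 1 array a side there was no replicate check and no test, and sizes alone are reported. Single spots of 19 repeated probes differed by a median of 0.0515 between the C3H17_OX arrays, against 0.0596 and 0.0481 within them, and the pair was counted as 1 sample. Over all genes the SD between the pair was 0.152. Repeated spots varied more on the WT array (SD 0.170) than on the atc3h17-1 array (SD 0.0548). The WT array enters every difference from WT and cannot be left out of them. All arrays lay on 1 slide and were read in 1 scan.

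The mutated gene was examined first. C3H17 (AT2G02160) has 3 probes. Probe A_84_P221496 had a scaled signal of 0.299 in atc3h17-1, 563 and 582 in C3H17_OX and 583 in WT. It was not well above background in the mutant, which places it at least 502-fold below WT. Probe A_84_P803253 had a scaled signal of 0.263 in atc3h17-1, 226 and 228 in C3H17_OX and 49.6 in WT. It was likewise not well above background in the mutant and lay at least 42.7-fold below WT. The dimmest probe, A_84_P847169, read 5.25 in atc3h17-1, 21.0 and 20.8 in C3H17_OX and 3.72 in WT, so it was 1.41-fold of WT in the mutant. The probes thus disagreed, with 2 of 3 near the floor in the mutant and the other at a low level on the mutant and WT arrays. Among the 20 genes next to C3H17 in the order of the TAIR10.1 reference table, 7 were measured on both arrays, and their differences ran from -0.44 to 0.62 with 0 past 2-fold.

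**Figure D1:**
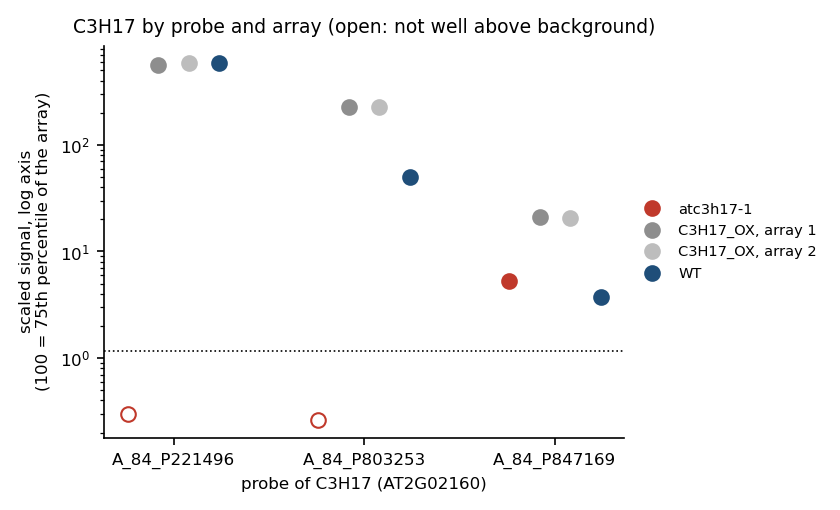
Scaled signal (log axis) of the 3 C3H17 probes on each array, with open circles for probes not well above background and a dotted line at the highest of the arrays' lowest detected signals. A_84_P221496 and A_84_P803253 lie below the line in atc3h17-1 and above it on the other arrays, and A_84_P847169 is above it on every array.

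Of 19285 genes measured on both arrays, 433 (2.25%) were at least 2-fold higher and 481 (2.49%) at least 2-fold lower in atc3h17-1 than in WT, 914 (4.74%) in all. Past 4-fold were 66 higher and 116 lower genes, and past 8-fold 16 higher and 4 lower genes. The median of all genes was -0.03 and the SD 0.49. By the same rule 0.453% of genes were past 2-fold between the C3H17_OX arrays. That pair was counted as 1 sample and leaves out the WT array, so it gives no such rate for atc3h17-1 against WT. Dim genes passed more often: of the 4822 dimmest genes 4.67% were higher and 7.01% lower, against 0.933% and 0.394% of the 4821 brightest. Of the 5729 genes with several probes, 66 had a mean at least 2-fold higher, 41 of them on every probe, and 41 a mean at least 2-fold lower, 30 of them on every probe. With normexp background correction the split was 649 higher to 323 lower.

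**Figure D2:**
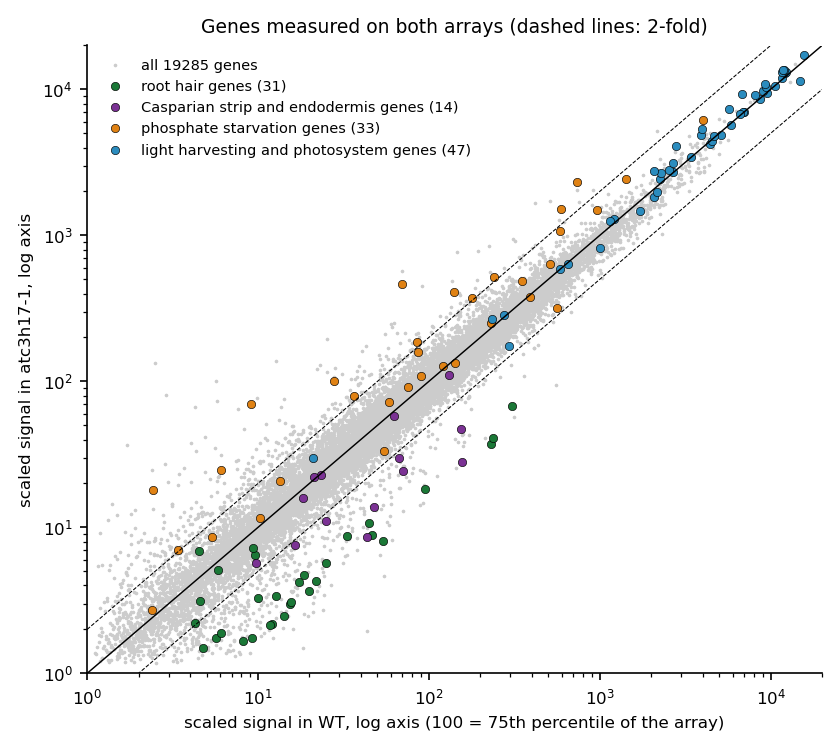
Scaled signal in atc3h17-1 (vertical) against WT (horizontal), log axes, for the 19285 genes measured on both arrays, with 4 gene lists in colour. Most root hair genes lie below the lower dashed 2-fold line, 13 of 33 phosphate starvation genes lie above the upper one, and 0 of 47 light harvesting and photosystem genes lie outside the lines.

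Among genes with several probes that were all past 2-fold, PCC1, a gene controlled by pathogens and the circadian clock, stood highest. Its scaled signal was 36.5 in atc3h17-1, 77.7 and 78.3 in C3H17_OX and 1.71 in WT, a difference of 4.42 from WT. BAM5, a beta-amylase, read 76.7 in atc3h17-1, 74.2 and 76.7 in C3H17_OX and 9.80 in WT (2.97). CCD8, a carotenoid cleavage dioxygenase of strigolactone synthesis, read 23.4 in atc3h17-1, 12.1 and 11.9 in C3H17_OX and 3.44 in WT. Next came the low-sulfur gene LSU1 (2.32), the patatin-like phospholipase gene PLA2A (2.45), the threonine aldolase gene THA1 (2.04), and AT1G12030 (2.2). The asparagine synthetase gene ASN1 (2.00), the phosphate starvation phosphatase gene PS2 (AT1G73010, 1.90), the plastid glucose 6-phosphate translocator gene GPT2 (1.84), the vegetative storage protein gene VSP2 (1.72) and the phytyl ester synthase gene PES1 (1.63) followed. AT2G25625 (1.95), AT2G25510 (2.00) and AT4G11910 (1.82) complete the 15. Each of the 15 was also above the same WT array in C3H17_OX, THA1 least at 0.95 and 0.94. The 15 were chosen for standing above that WT array, so this is no separate support.

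The 15 lowest genes with several probes were led by AIR1, an auxin-induced gene of root cultures, with 6.48 in atc3h17-1, 27.7 and 28.3 in C3H17_OX and 51.8 in WT (-3.0). AGP24, an arabinogalactan protein gene, read 95.1 in atc3h17-1, 220 and 214 in C3H17_OX and 552 in WT (-2.54). The tonoplast aquaporin gene TIP2;3 read 13.4 in atc3h17-1, 42.9 and 41.0 in C3H17_OX and 52.3 in WT (-1.97). In each of these 3 genes, chosen for a low mutant value beside WT, the mutant was the lowest array. The subtilase gene SBT4.12 (-2.33), the cytochrome P450 gene CYP705A1 (-2.18), the arabinogalactan protein gene AGP13 (-1.90), the class III peroxidase gene AT5G66390 (-1.86) and BT2, a BTB and TAZ domain gene (-1.63), were also among the 15. In BT2 the mutant was not the lowest array, with 48.9 in atc3h17-1, 48.5 and 43.8 in C3H17_OX and 151 in WT. AT5G57625 (-2.65), AT5G33355 (-2.37), AT1G08670 (-2.18), AT5G64100 (-1.91), AT4G30320 (-1.89), AT3G25930 (-1.81) and AT5G26260 (-1.49) make up the rest.

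Genes with 1 probe reached further. The natriuretic peptide-like gene PNP-A read 134 in atc3h17-1, 159 and 155 in C3H17_OX and 2.48 in WT (5.76). GSTU11, a tau-class glutathione S-transferase gene, read 81.2 in atc3h17-1, 150 and 148 in C3H17_OX and 2.88 in WT (4.82). The beta-glucosidase gene DIN2 (4.16), the anthocyanin regulator gene PAP1 (3.97), AT5G39520 (3.67), the sugar transporter gene SAG29 (3.43), the glutaredoxin gene GRX480 (3.37), the late embryogenesis gene GEA6 (3.37), the dihydroflavonol reductase gene DFR (3.26) and GSTU4 (3.22) complete the 10 highest. Each of the 10 was also above the same WT array in C3H17_OX, but they were chosen for standing above that array. At the other end AGP30, a root arabinogalactan protein gene, read 1.94 in atc3h17-1, 8.69 and 8.70 in C3H17_OX and 43.6 in WT (-4.49). AT1G52060 (-3.62), AT1G52070 (-3.56), AT3G06460 (-3.14), AT5G24100 (-2.99), AT5G60530 (-2.99), AT2G10965 (-2.98), AT5G54370 (-2.88), AT3G04320 (-2.86) and AT1G33640 (-2.82) followed. A single probe gives no second reading of its gene on an array.

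The comparison was then described across 45 lists of genes with known functions, 1193 distinct genes of which were measured on both arrays. The medians lay between -2.14 for root hair genes and 0.82 for jasmonate and wound output genes. Root hair, root meristem and Casparian strip genes took the low end, and lists of phosphate starvation, senescence, jasmonate output and salicylate genes the high end. Each count of list members past 2-fold stands beside 2.25% of all genes higher, 2.49% lower and 4.74% either way.

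**Figure D3:**
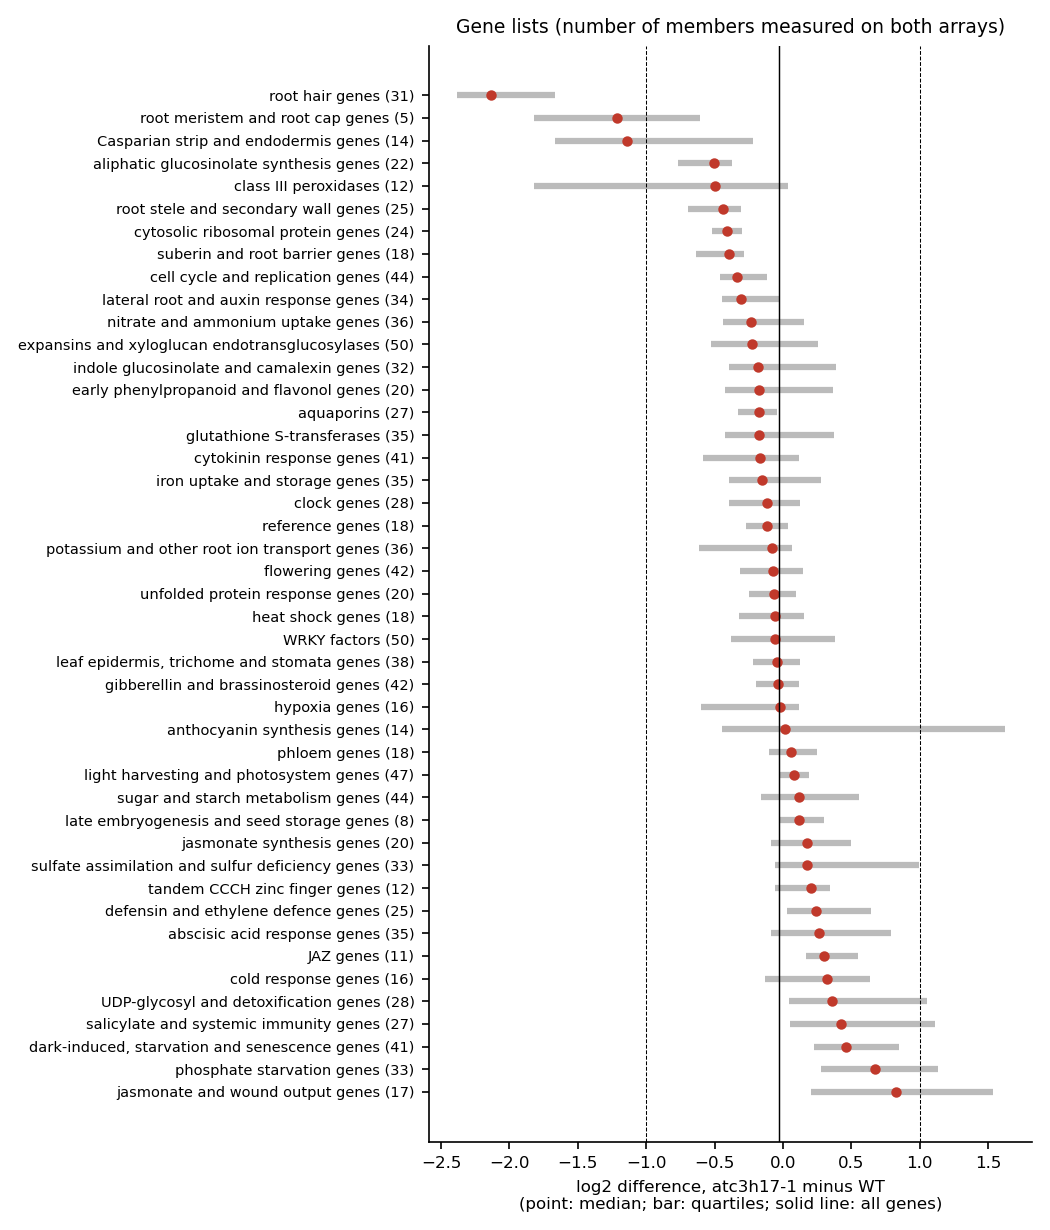
Median (point) and quartiles (bar) of the log2 difference, atc3h17-1 minus WT, of the members of each of 45 gene lists, with the number measured on both arrays in brackets; the solid line is the median of all genes and the dashed lines mark 2-fold. The root hair, root meristem and Casparian strip lists have medians below -1, and the phosphate starvation and jasmonate output lists stand highest.

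Root hairs are tube-shaped outgrowths of root epidermal cells that take up water and ions. Basic helix-loop-helix factors such as RHD6 and RSL4 switch on their growth, and expansins, extensins and other wall proteins loosen and build their walls. Of 37 root hair genes, 31 were measured on both arrays. Of these, 25 were at least 2-fold lower in atc3h17-1 and 0 higher, beside 2.49% and 2.25% of all genes. Among the 4822 dimmest genes 7.01% were lower. The list median was -2.14 beside -0.03 for all genes. The mutant was the lowest of the 4 arrays for 28 of the 31, beside 24.4% of all genes. With normexp background correction the list median was -1.47. Against the mean of the C3H17_OX arrays, in which WT has no part, the median was -1.24 and 20 of 31 were at least 2-fold lower, beside 1.83% of all genes, and 1 was higher, beside 0.809%.

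The 4 measured transcription factor genes were all past 2-fold. RSL4 read 1.66 in atc3h17-1, 2.13 and 2.06 in C3H17_OX and 8.13 in WT (-2.29). RHD6 read 1.90 in atc3h17-1, 5.09 and 5.12 in C3H17_OX and 6.05 in WT (-1.67). LRL3 (-2.53) and RSL2 (-1.97) were lower too. RSL4 thus stood near the mutant level in C3H17_OX, and RHD6 near the WT level. Of 13 wall protein genes 9 were at least 2-fold lower. PRP3, a proline-rich protein gene of root hairs, read 8.13 in atc3h17-1, 23.3 and 23.8 in C3H17_OX and 53.6 in WT (-2.72). The arabinogalactan protein gene AGP3 read 37.6 in atc3h17-1, 109 and 108 in C3H17_OX and 231 in WT (-2.62). The expansin genes EXPA7 (-2.36) and EXPA18 (-2.14), the xyloglucan endotransglucosylase genes XTH14 (-2.54), XTH26 (-2.04) and XTH12 (-1.70), the extensin-like gene RHS13 (-2.16) and PRP1 (-2.36) went with them.

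The wall genes that stayed within 2-fold were XTH13 (-0.96), LRX1 (-0.57), EXT12 (-0.19) and LRX2 (0.60). Of the 14 other root hair genes 12 were at least 2-fold lower. COW1, a phosphatidylinositol transfer protein gene needed for hair tip growth, read 10.6 in atc3h17-1, 22.3 and 21.5 in C3H17_OX and 44.4 in WT (-2.06). The peroxidase genes RHS18 (-2.45) and RHS19 (-2.39), together with MRH6 (-2.48), RHS12 (-2.44), RHS8 (-2.39), MOP10 (-2.37), RHS16 (-2.33), MRH4 (-1.94), RHS15 (-1.92), RHS17 (-1.66) and RHS10 (-1.61), were the others. RHD2, the NADPH oxidase gene of hair tips, was at -0.37 and the kinase gene MRH1 at -0.58. MRH2 and AT1G16440 (RSH3 in the reference table) were well above background in WT and not in the mutant, at least 2.89-fold and at least 2.63-fold lower. MRH2 was not well above background on either C3H17_OX array. All but 1 of the 31 genes had a single probe, and many mutant values lay close to the lowest detected signal of 1.16.

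**Figure D4:**
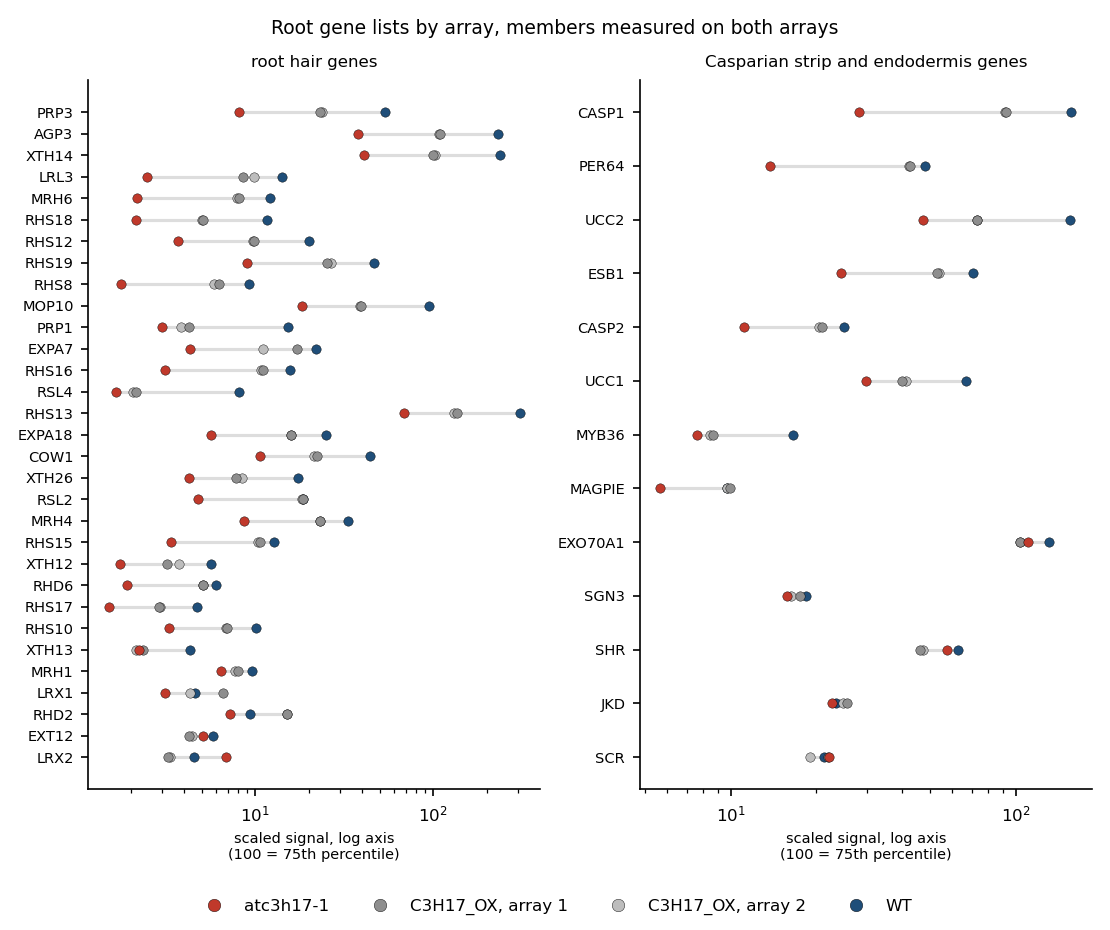
Scaled signal (log axis) of root hair genes (left) and Casparian strip and endodermis genes (right) on each array, 1 row a gene, for members measured in atc3h17-1 and WT, with 1 member of the right panel not drawn. In most rows atc3h17-1 is leftmost, WT rightmost and C3H17_OX between them; SCR, JKD and SHR show little spread.

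The endodermis surrounds the root's vascular core and seals it with the Casparian strip, a lignin ring placed by CASP scaffold proteins under the factor MYB36. CASP1 read 28.3 in atc3h17-1, 92.5 and 91.8 in C3H17_OX and 157 in WT (-2.47). CASP4 and CASP5, well above background in WT and not in the mutant, were at least 3.69-fold and at least 3.62-fold lower. The lignin-polymerising peroxidase gene PER64 (-1.81), the dirigent gene ESB1 (-1.53), CASP2 (-1.17), the uclacyanin genes UCC2 (-1.71) and UCC1 (-1.16) and MYB36 (-1.12, both probes lower) were also past 2-fold. Of 14 measured genes 8 were at least 2-fold lower (2.49% of all genes) and 0 higher (2.25%), with a median of -1.14. The mutant was the lowest of the 4 arrays for 11 (24.4% of all genes). The patterning factors above them differed little: SHR was at -0.13, SCR at 0.06, JKD at -0.05, and the receptor kinase gene SGN3 at -0.21.

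Suberin coats endodermal cells later. Of 18 measured suberin genes 2 were at least 2-fold lower (2.49% of all genes), MYB92 (-1.17) and the acyltransferase gene GPAT5 (-1.09). In the other direction 1 was higher (2.25% of all genes), MYB53 (1.32), and the median was -0.40. The mutant was the lowest array for 16 of these 18, beside 24.4% of all genes, and C3H17_OX had a median of 0.05 from WT. Genes of the stele and secondary walls had a median of -0.44, with 4 of 25 at least 2-fold lower. These were PRX72 (AT5G66390, -1.86), the xylem protease gene XCP1 (-1.26), MYB46 (-1.25), a factor of secondary wall formation, and the secondary wall gene IRX6 (-1.01). Detected on 1 array of the pair were IRX15, at least 2.31-fold lower, and the peroxidase gene PRX52, at least 2.56-fold higher. Class III peroxidases cross-link wall polymers, and a match on gene descriptions, which may miss family members, gave 12 measured genes. Of these 5 were at least 2-fold lower, the root hair genes RHS18 and RHS19, PRX72, PER64 and RCI3 (-1.43). The median was -0.50, and PRX52, a list member detected on 1 array of the pair, was on the other side of WT.

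Few of the listed root tip genes were measured on both arrays. Of 12 listed genes of the root meristem and cap on the array 5 were measured on both arrays, 3 at least 2-fold lower. The meristem peptide genes RGF3 and RGF2 read 1.44 and 2.95 in atc3h17-1, against 6.70 and 10.5 in WT (-2.22 and -1.82), and the MADS-box gene XAL1 was at -1.21. PLT1, a stem cell factor gene, went the other way, well above background in the mutant and not in WT (at least 3.06-fold higher, on 1 probe). In the lateral root and auxin list 2 of 34 genes were at least 2-fold lower, beside 2.49% of all genes. They were the auxin efflux carrier gene PIN2 (-1.48) and MAKR4 (-1.4), with 0 higher and a list median of -0.31. PUCHI, a lateral root primordium gene, was well above background in WT alone of the pair, at least 6.65-fold lower in atc3h17-1. Cytokinin genes were centred near -0.17, and CYP735A2, a trans-zeatin synthesis enzyme gene of roots, read 1.36 in atc3h17-1, 1.45 and 1.62 in C3H17_OX and 7.81 in WT (-2.52). CYP735A1 and the response regulator gene ARR3, not well above background in the mutant, were at least 3.85-fold and at least 3.81-fold lower.

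Uptake genes of roots were mixed. Iron is taken up by IRT transporters under the factor FIT, helped by secreted coumarins. F6'H1, the coumarin synthesis gene, read 3.64 in atc3h17-1, 12 and 11.5 in C3H17_OX and 22.2 in WT (-2.61). IRT2 (-2.33), FIT1 (-1.34) and the coumarin exporter gene ABCG37 (-1.18) were the other 3 of 35 iron genes past 2-fold, beside 4.74% of all genes. The list median was -0.16, which turned to 0.048 with the array position trend removed and to 0.081 with genes of 2 or more probes. Among other ion transporters 5 of 36 genes were at least 2-fold lower, beside 2.49% of all genes. They were the calcium channel gene CNGC14 (-2.08), the zinc transporter genes ZIP3 (-1.90), ZIP2 (-1.23) and ZIP9 (-1.20), and the malate channel gene ALMT1 (-1.56). The aquaporin genes TIP4;1 (-1.75) and PIP2;4 (-1.34) were lower beside TIP2;3, while SIP1;2 was higher (1.00), among 27 genes with a median of -0.17. Of 36 nitrate and ammonium genes, the ammonium transporter gene AMT1;3 was lower (-1.61), and NRT1.8 (2.53), ASN1 (2.00) and AMT2 (1.1) were higher. NRT1.8, which retrieves nitrate from the xylem sap, read 19.7 in atc3h17-1, 15.7 and 16.1 in C3H17_OX and 3.4 in WT.

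Markers of leaf cells, vascular tissue and the epidermis were examined next. Of 47 light harvesting and photosystem genes 0 were past 2-fold, and the median was 0.08. The Rubisco small subunit gene RBCS1A (13 probes), which has near-identical copies that probes may not separate, read 12047 in atc3h17-1 and 11720 in WT. The phloem markers SUC2 (0.15) and APL (0.01), the stomatal markers SPCH (-0.13), FAMA (-0.39) and KAT1 (-0.18), and the trichome markers GL1 (-0.49) and GL2 (0.27) stayed within 2-fold. The xylem markers IRX1 (-0.36), IRX3 (-0.69) and XCP1 (-1.26) were lower. The root hair markers used for this check, PRP3, EXPA7, RSL4 and COW1, lay between -2.72 and -2.06, while the wider root hair list reached 0.60 for LRX2. The seed markers CRA1 and OLEO1 were not well above background on either array. The whole leaf epidermis, trichome and stomata list had a median of -0.05, with 1 of 38 genes past 2-fold, the guard cell anion channel gene SLAC1 (1.21). The part of the roots' share of the RNA in any result here was not tested.

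Phosphate starvation brings plants to release, import and save phosphate through transporters of the PHT1 family, acid phosphatases and the exchange of membrane phospholipids for other lipids. Of 33 measured genes of this response, 13 were at least 2-fold higher in atc3h17-1 and 0 lower, beside 2.25% and 2.49% of all genes. The median was 0.67. Phosphate transporters came first. PHT1;5, which moves phosphate between organs, read 70.5 in atc3h17-1, 102 and 105 in C3H17_OX and 9.13 in WT (2.95). PHT1;7 read 17.9 in atc3h17-1 and 2.42 in WT (2.89), and PHT1;8 (1.05) and PHO1;H1 (1.11) were also past 2-fold, 4 of 9 transporter genes. The root uptake carriers PHT1;1 (-0.82) and PHT1;2 (-0.71) were lower than in WT, by less than 2-fold.

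Among phosphatases and nucleases, the ribonuclease gene RNS1 read 468 in atc3h17-1, 335 and 336 in C3H17_OX and 69.6 in WT (2.75). The acid phosphatase gene PAP17 (1.64) and the phosphatase gene PEPC1 (AT1G17710, 1.35) were higher, 3 of 5 in this group. Of 7 lipid remodelling genes 3 were at least 2-fold higher, the phospholipase gene NPC4 (2.01) and the galactolipid synthase genes MGD3 (1.11) and MGD2 (1.06), and SQD2 of sulfolipid synthesis was at 0.87. Of 11 signalling genes 2 were past 2-fold, SPX3 (1.56), for a phosphate-sensing SPX protein, and the noncoding RNA gene IPS1 (1.13), while the master regulator PHR1 was at 0.09. GPT2, counted above, is the remaining member. In C3H17_OX the list median was 1.09 from WT, and that difference shares the WT array. Against C3H17_OX the mutant's list median was -0.24.

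**Figure D5:**
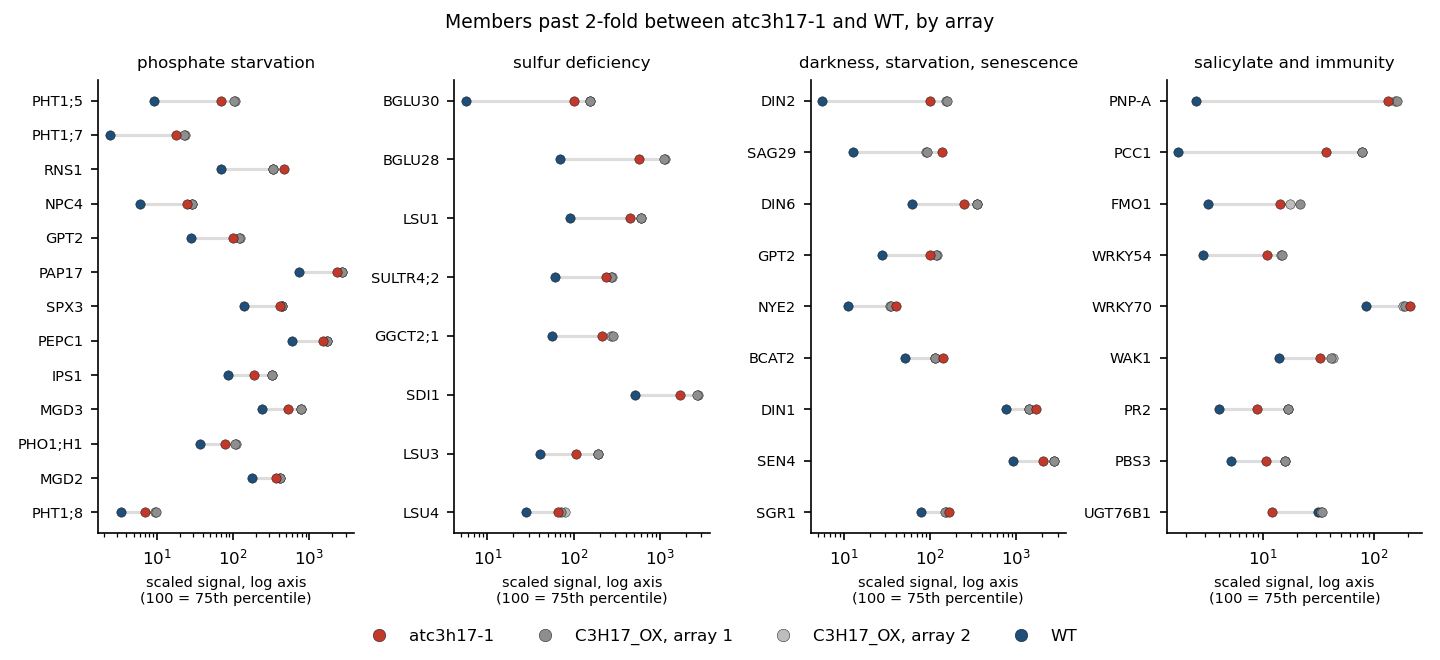
Scaled signal (log axis) on each array of the members past 2-fold between atc3h17-1 and WT in 4 lists, 1 row a gene. In most rows the WT point is leftmost and the atc3h17-1 and C3H17_OX points lie together to the right; UGT76B1 has atc3h17-1 leftmost.

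Sulfur deficiency genes serve to import and recycle sulfur, in part by breaking down glucosinolates. Of 33 measured genes 8 were at least 2-fold higher and 0 lower, beside 2.25% and 2.49% of all genes. The median was 0.18 (-0.038 with genes of 2 or more probes). DIN2 (BGLU30), a beta-glucosidase gene, read 101 in atc3h17-1, 156 and 154 in C3H17_OX and 5.65 in WT (4.16). BGLU28 read 574 in atc3h17-1, against 69.8 in WT (3.04). LSU1 (2.32), LSU3 (1.36) and LSU4 (1.24), the vacuolar sulfate exporter gene SULTR4;2 (1.95), the glutathione-degrading GGCT2;1 (1.92) and SDI1 (1.75), a repressor of glucosinolate synthesis, completed the group. Aliphatic glucosinolate synthesis genes lay on the other side of WT: 21 of 22 were below 0. The median was -0.50 (-0.03 for all genes), and 1 was at least 2-fold lower, beside 2.49% of all genes. That gene, CYP79F2, read 12.1 in atc3h17-1, 9.93 and 8.64 in C3H17_OX and 25.8 in WT (-1.1). The aminotransferase gene BCAT4 was at -0.87 and the regulator gene MYB29 at -0.85. The list median was -1.23 for C3H17_OX against the same WT array, and the mutant stood 0.56 above C3H17_OX.

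Genes induced by darkness, sugar starvation and senescence had a median of 0.46. At least 2-fold higher were 9 of 41 (2.25% of all genes), and 0 were lower (2.49%). The senescence-associated sugar exporter gene SAG29 (SWEET15) read 137 in atc3h17-1, 92.2 and 90.3 in C3H17_OX and 12.7 in WT (3.43). The chlorophyll breakdown genes NYE2 (1.82) and SGR1 (1.06), ASN1 (DIN6, 2.00), GPT2 (1.84), the branched-chain aminotransferase gene BCAT2 (1.47), DIN1 (1.17) and SEN4 (1.15) were higher, as was DIN2. SAG13 was well above background in the mutant and not in WT, at least 14.5-fold higher. The mutant was the highest of the 4 arrays for 18 of the 41 genes, beside 22.6% of all genes. Of 44 sugar and starch genes 3 were past 2-fold, beside 4.74% of all genes. They were BAM5 and SWEET15 with the glucan, water dikinase gene SEX1 (1.11), and the list median was 0.12. SWEET4 and the amylase gene AMY1, not well above background in WT, were at least 2.37-fold and at least 2.36-fold higher.

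Jasmonate is made from plastid lipids through lipoxygenases and allene oxide cyclases, and JAZ repressors hold back its outputs. Of 17 genes listed as output and wound genes 7 were at least 2-fold higher (2.25% of all genes) and 0 lower (2.49%), with a median of 0.82. VSP2 read 128 in atc3h17-1, 342 and 332 in C3H17_OX and 38.9 in WT (1.72), and VSP1 (4 probes) was at 1.54. GRX480 (3.37), the NAC factor gene ANAC019 (2.48), the trypsin inhibitor gene TI1 (1.82), the jacalin-related lectin gene JAL23 (1.50) and the arginine decarboxylase gene ADC2 (1.08) were the others. GRX480, the highest of them, is a glutaredoxin gene that is not specific to jasmonate. TAT3 and THI2.1, not well above background in WT, were at least 4.38-fold and at least 2.08-fold higher. Of 20 synthesis and turnover genes 3 were past 2-fold, JOX2 (1.47), AOC2 (1.4) and LOX2 (1.18), with a median of 0.17. The 4 probes of LOX2 disagreed, from -0.54 to 1.93. Detected on 1 array of the pair were the lipoxygenase gene LOX4, at least 5.26-fold higher, and the lipase gene DGL, at least 2.86-fold lower. The 1 probe of DGL differed between the C3H17_OX arrays, at 7.76 and 0.229. Of 11 JAZ genes 0 were past 2-fold, with a median of 0.30 and JAZ1 at 0.88. In the defensin and ethylene list the ethylene synthesis gene ACS2 (3.08), PDF1.2A (2.03) and CTR1 (1.22) were higher and PDF1.4 (-1.08) lower, among 25 genes with a median of 0.25.

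Salicylate acts in local and systemic immunity. Of 27 measured genes 8 were at least 2-fold higher (2.25% of all genes), 1 was lower (2.49%), and the median was 0.42. FMO1, the enzyme gene for the mobile signal N-hydroxypipecolic acid, read 14.1 in atc3h17-1, 21.2 and 17.5 in C3H17_OX and 3.15 in WT (2.16). WRKY54 (1.93), WRKY70 (1.33), the receptor-like kinase gene WAK1 (1.22), the glucanase gene PR2 (1.16) and the salicylate synthesis gene PBS3 (1.07, probes at 0.38 and 1.75) joined PNP-A and PCC1. UGT76B1, whose enzyme glycosylates salicylate and N-hydroxypipecolic acid, was the lower gene, with 12 in atc3h17-1, 34.0 and 32.8 in C3H17_OX and 31.3 in WT (-1.38). Its level in the mutant was thus below the 3 other arrays. A further 6 genes were well above background in the mutant and not in WT, among them CRK36 (at least 8.40-fold higher), SARD1 (at least 3.49-fold) and PR1 (at least 2.32-fold). WRKY54 and WRKY70 were also the 2 of 50 WRKY genes past 2-fold among those measured on both arrays, beside 4.74% of all genes. The WRKY median was -0.06. WRKY62, not well above background in WT, was at least 2.47-fold higher.

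Detoxification genes conjugate, reduce or export foreign compounds. Of 28 measured members 8 were at least 2-fold higher (2.25% of all genes) and 0 lower (2.49%), with a median of 0.36. The transporter gene ABCG40 read 12.1 in atc3h17-1, 53.3 and 54.2 in C3H17_OX and 2.77 in WT (2.13). AKR4C9 (1.90), CYP81D8 (1.46), CYP81D11 (1.43), UGT74E2 (1.41), UGT73B3 (1.19), OPR1 (1.11) and UGT73B2 (1.03) were the others. ELI3-2, an elicitor-activated alcohol dehydrogenase gene, read 55.8 in atc3h17-1, 58.3 and 56.1 in C3H17_OX and 1.01 in WT, at least 50.1-fold higher, and UGT76E12 was at least 3.42-fold higher. Glutathione S-transferases split: GSTU11, GSTU4, GSTF12 (1.86) and GSTU7 (1.55) were higher, and GSTU22 (-2.11), GSTU14 (-2.07) and GSTU28 (-1.49) lower, among 35 genes with a median of -0.17. GSTU3, not well above background in WT, was at least 2.19-fold higher.

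Anthocyanins are made late in the flavonoid pathway under MYB factors such as PAP1. PAP1 (MYB75) read 66.7 in atc3h17-1, 83.0 and 84.3 in C3H17_OX and 4.26 in WT (3.97). MYB90 (PAP2) read 41.9 in atc3h17-1, 51.5 and 49.2 in C3H17_OX and 4.89 in WT (3.1). The enzyme gene DFR read 27.2 in atc3h17-1, 20.8 and 19.8 in C3H17_OX and 2.84 in WT (3.26). GSTF12 (TT19), the glutathione transferase gene for anthocyanin transport into the vacuole, was at 1.86. Of 14 measured genes these 4 were past 2-fold and 0 lower. The synthesis gene LDOX and the glycosyltransferase gene UF3GT were well above background in the mutant and not in WT, at least 3.78-fold and at least 6.18-fold higher. The list median was 0.01, and the other 10 measured members, most of them regulators, ran from -0.88 for LBD38 to 0.90 for TT8. Early phenylpropanoid and flavonol genes had a median of -0.17 with 0 of 20 past 2-fold.

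Abscisic acid response genes had a median of 0.26 (-0.087 with genes of 2 or more probes). At least 2-fold higher were 5 of 35 (2.25% of all genes), and 0 were lower (2.49%). RD20, a caleosin gene, read 161 in atc3h17-1, 224 and 226 in C3H17_OX and 40.8 in WT (1.98). HAI1, a protein phosphatase gene (1.92), COR15B (1.78), the proline synthesis gene P5CS1 (1.02) and EM6 (the table's GEA6) were the others. The lipid transfer protein gene LTP4 was at least 14.2-fold higher, and the abscisic acid synthesis gene NCED3 and the factor gene ABI5 at least 2.87-fold and at least 3.16-fold higher. In the cold list CBF3 (1.02) and the galactinol synthase gene GOLS2 (1.08) were higher and RCI2B (-1.06) lower, with a median of 0.32 over 16 genes. Of 8 measured seed genes EM6 alone was past 2-fold (median 0.12), and 14 of the list's 25 genes were not well above background on either array.

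Growth lists lay a little below WT with few members past 2-fold. All but 2 of 24 cytosolic ribosomal protein genes were below 0, with a median of -0.41 (-0.03 for all genes) and 0 past 2-fold. Of 44 cell cycle genes 36 were below 0, the median was -0.33, and the mitotic cyclin gene CYCB1;1 (-1.02) was the 1 past 2-fold. In both lists C3H17_OX was further from the same WT array, at -0.79 and -0.60. The expansin and xyloglucan endotransglucosylase list had a median of -0.23 with 6 of 50 genes lower, XTH20 (-1.43) beside the root hair members, and 4 higher, XTH25 (1.69), XTH21 (1.19, but -0.99 with no filter on dim probes), XTH24 (1.15) and XTH28 (1.04). The expansin gene EXPA2, not well above background in WT, was at least 6.70-fold higher. Its 1 probe differed between the C3H17_OX arrays, at 0.686 and 8.02.

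Other lists stayed near the median of all genes. Reference genes had a median of -0.12, with 0 of 18 past 2-fold and a range from -0.52 to 0.32. Flowering genes (-0.07, AGL17 at -1.09), clock genes (-0.12, PRR3 at -1.07), gibberellin and brassinosteroid genes (-0.03, PRE5 at -1.21) and heat shock genes (-0.06, HSFA7A at -1.23) each had 1 member past 2-fold among those measured on both arrays, all lower. The heat shock genes HSP23.6-MITO and HSP17.4, not well above background in the mutant, were at least 7.46-fold and at least 2.61-fold lower. Hypoxia (-0.02), unfolded protein response (-0.06) and phloem genes (0.06) had 0 past 2-fold among those measured on both arrays. BIP3, a chaperone gene of the unfolded protein response not well above background in WT, was at least 3.11-fold higher. In the indole glucosinolate and camalexin list PAD3 (1.21), the last enzyme gene of camalexin synthesis, and the nitrile specifier gene NSP5 (1.23) were higher, with a median of -0.18, and the regulator gene MYB122, not well above background in the mutant, was at least 2.97-fold lower. The 12 other CCCH zinc finger genes measured had a median of 0.20 (-0.0021 with normexp, -0.014 with 2 or more probes) and 0 past 2-fold, and FES1 was the furthest at 0.72.

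Genes detected on 1 array of the pair came last. Well above background in atc3h17-1 and not in WT were 574 genes, 231 of them with a bound of at least 2-fold. In WT and not in atc3h17-1 there were 458, with 198 such bounds. With 2 or more probes the largest bounds were those of AT1G09500 (at least 51.9-fold higher, 102 in atc3h17-1, 105 and 108 in C3H17_OX and 1.97 in WT), AT4G12735 (at least 6.75-fold) and TSPO (at least 4.17-fold). CSLG2, BIP3, AT1G13470, SWEET4 and PGAZAT followed, at 3.23-fold down to 2.32-fold at least. On the lower side stood AT3G12540 (at least 3.90-fold), AT1G05660 (at least 2.84-fold), the purine carrier gene AZG2 (at least 2.66-fold), MES13, AT1G43020, AT1G17300, AT4G33610 and AT2G05400, the last at least 1.53-fold. Of the 231 higher genes, 92 were not well above background on either C3H17_OX array. Each of those 92 rested on 1 probe. Of the 198 lower genes, 67 were likewise well above background on neither C3H17_OX array, 66 of them with 1 probe.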

How the data were processed

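RNA from whole seedlings was hybridised to 1-colour Agilent arrays, per the labels' protocols. The deposited scanner files hold linear spot intensity values made with Feature Extraction 11.0.1.1, which subtracted background and detrended each array, per the file headers. The 0 or 1 marks for background and outliers are other deposited columns of the same files. The authors' series value table holds the same intensity rounded, unscaled between arrays, with column medians of 580 for atc3h17-1, 620 and 611 for C3H17_OX and 616 for WT.

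Processed signals were put on the log2 scale and set relative to the 75th percentile of their own array. Control and outlier spots were left out, repeated spots were averaged, and probes well above background on both arrays were kept. Of 43603 probes 34348 matched 1 locus by transcript accession in the TAIR10.1 table, which served for names and gene order. No symbol C3H17 stands in that table, and AT2G02160 was used for it on general knowledge. A gene's value is the mean over its kept probes (13556 genes had 1 probe). A gene well above background on 1 array only has a bound, its signal over the higher of the other array's lowest detected signal and the dim probe's own. A difference of 2-fold or more was counted, with no test. No library could be left out, with 1 array a side.

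The comparison, gene lists and settings were chosen with earlier results of these data known. Named are C3H17, the 15 highest and lowest genes with every probe past 2-fold, the 10 highest and lowest 1-probe genes, list members past 2-fold or among the 5 largest, up to 8 bounded genes per direction with 2 or more probes, and members completing a pathway step. The values of 1 Casparian strip gene are not reported here. From the lists, 32 loci that share a name with the gene meant were removed, and 2 lists of organelle genes had no locus in the table. Tools were Python 3.11.15, numpy 2.4.6, pandas 2.3.3, matplotlib 3.10.9 and, for normexp, limma 3.58.1 in R 4.3.3. The gene summary was tested on simulated data. Alternatives covered background correction, scaling, dim-probe filters, gene summaries, array position and the series value table.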

Additional observations from a re-analysis of the deposited data

How the results depend on the processing

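Each of the alternatives named with the methods was run. The counts of 433 higher and 481 lower genes moved by more than 1.5 times with no filter on dim probes (1113 and 1206), with a processed signal of at least 200 (278 and 208) and with genes of 2 or more probes (66 and 41). Of 449 recomputed list medians, 422 kept their sign and moved by less than 0.152, the SD between the C3H17_OX arrays, 21 moved further and 6 changed sign. With normexp the medians became -1.47 for root hair, -1.01 for root meristem, -0.77 for Casparian strip, -0.67 for peroxidase and -0.18 for hypoxia genes, and -0.0021 for CCCH genes, a change of sign. With 2 or more probes, which left 1 to 12 members in these lists, they became -0.58 for root hair, -0.066 for root meristem, -0.53 for Casparian strip, -0.84 for peroxidase, 0.47 for phosphate, 0.79 for anthocyanin, 0.090 for cold, 0.30 for seed and 0.14 for detoxification genes. Under that setting the sign changed for iron (0.081), sulfur (-0.038), abscisic acid (-0.087) and CCCH genes (-0.014). With no filter they became -0.81 for root meristem, -0.010 for early phenylpropanoid, 0.65 for anthocyanin, 0.58 for salicylate and 0.11 for WRKY genes. The anthocyanin median was -0.29 at a signal of at least 200. With the position trend removed, CCCH genes stood at 0.033 and iron genes changed sign to 0.048. Of 187 genes past 2-fold, 151 kept direction and size under each alternative that measured them, and XTH21 changed sign to -0.99 with no filter. The cause was not tested. No paired analysis was possible because atc3h17-1 and WT have 1 array each. Signal over background limits dim genes, and the number of arrays limits the precision.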

Other observations

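The genes below were chosen after their values were seen and carry no test. Jacalin lectin genes on chromosome 1 lay on both sides of WT. AT1G52000 (1.42), MBP2 (1.1) and MBP1 (1.29, on the log2 scale, atc3h17-1 minus WT) were higher, and MBP1 and MBP2 code for myrosinase-binding proteins. Their neighbours in gene order, AT1G52050 (-2.73), AT1G52060 (-3.62) and AT1G52070 (-3.56), were lower. AT1G52070 had a scaled signal of 4.61 in atc3h17-1, 8.77 and 8.81 in C3H17_OX and 54.4 in WT. Close relatives side by side may share probe signal, which was not tested.

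Other runs of 3 neighbouring measured genes past 2-fold held AT2G32190 (2.14), AT2G32200 (1.72) and AT2G32210 (1.22), all higher, and AT2G43600 (-1.25), AT2G43610 (-2.08) and AT2G43620 (-1.45), all lower. AT2G43610 read 38.3 in atc3h17-1, 86.5 and 88.2 in C3H17_OX and 162 in WT. Of 27 genes whose symbol starts with AGP, most of them arabinogalactan protein genes, 7 were at least 2-fold lower and 0 higher, with a median of -0.32.

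Of the 92 genes well above background on the atc3h17-1 array alone of the 4, with a bound of at least 2-fold, each had 1 probe. On the WT array alone there were 67 such genes. AT2G25565 read 15.2 in atc3h17-1, 0.242 and 0.259 in C3H17_OX and 0.412 in WT. AT1G80133 read 14.7 in atc3h17-1, 0.282 and 0.218 in C3H17_OX and 0.223 in WT.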
